A study of Arabidopsis thaliana with 16 samples.

Results

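YAB5, CLV3, LAS and MUTE are regulatory genes of the Arabidopsis shoot that act in different cells: young organs, stem cells, leaf axils and the stomatal lineage. They were chosen by locus (AT2G26580, AT2G27250, AT1G55580 and AT3G06120), and each was matched by a single probe set, which matched no other gene. These 4 probe sets are 4 of the 22746 non-control probe sets of the Affymetrix ATH1 array, and all 4 were among the 18237 bright enough to be tested. The 16 arrays, in 10 groups, hold RNA of shoot pieces cut from etiolated Arabidopsis thaliana seedlings, and the series concerns photoreceptor control of the shoot meristem and of leaf initiation.

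All groups shared the Landsberg erecta background, which carries a mutant form of the ERECTA receptor kinase gene, itself a regulator of stomatal spacing and organ shape. Seeds were kept cold for 3 days, received 30 min of white light at 100 µmol m-2 s-1 to start germination, and grew for 3 days at 21 °C in darkness on medium without sucrose. The light groups then went back to white light. The shoot apex, cut below the meristem and at the cotyledon bases, gave 2 arrays each from darkness, from 1 h and from 6 h of light, and 1 array each from 2, 24, 48 and 72 h of light. The labels name the apex pieces at 48 and 72 h as meristem region with developing leaf primordia. The cotyledon, with petiole and tip removed, gave 2 arrays each from darkness, 1 h of light and 6 h of light. Each sample pooled about 1500 seedlings (72 h) to more than 4000 (dark), drawn from many plates and more than 1 experiment, with 1 tissue taken per seedling. No seedlings were kept dark beyond the 3 days, so light and added age cannot be told apart. In these bulk samples, fewer cells of a type and less RNA per cell cannot be told apart either.

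As background, the shoot meristem keeps stem cells at its centre and forms leaf primordia on its flank. CLV3 is a small secreted peptide of the CLE family made by the stem cells, and through the receptor kinase CLV1 it limits the stem-cell-promoting factor WUS. YAB5 belongs to the YABBY transcription factors, which are expressed in lateral organs and not in the meristem, and which promote blade growth and the identity of the lower leaf side. LAS is a GRAS-family factor of the boundary between leaf and meristem that is needed for axillary meristems in vegetative growth. MUTE is a bHLH factor of the stomatal lineage, where SPCH starts the lineage, MUTE ends its asymmetric divisions and FAMA acts in the last division and in guard cell identity.

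Values are MAS5 signals, a linear measure of probe set brightness in which every array had been scaled to the same trimmed mean. No detection calls were used here, and the 35th percentile of each array's non-control probe sets, 12.4 to 18.6 signal units, served as its floor, and a signal at or below it is called background. Differences are log2 values (first group minus second) ± SE from a limma fit over all 16 arrays, and an adjusted p under 0.05 after Benjamini-Hochberg correction over all probe sets tested counts as called. Signals of different probe sets are not compared. Replicate arrays correlated at 0.893 to 0.924 over probe sets. Since the labels do not say how the pools of a pair of replicates differ, the p-values reflect the spread of these pools, which may be partly technical. The 3' to 5' ratio of the GAPDH control, a sign of RNA quality, was 5.40 in apex 6 h replicate 2, 0.832 to 1.85 on the other apex arrays and 1.73 to 4.72 on the cotyledon arrays. For the actin control it was 30.43 in apex 6 h replicate 2. On the other apex arrays the actin ratio was 5.196 to 14.07 and on the cotyledon arrays 6.709 to 14.23. The ranges of the tissues overlapped for both controls, for GAPDH only between 1.73 and 1.85 with apex 6 h replicate 2 set aside. In every apex pair replicate 2 had the higher ratio for both controls.

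The number of arrays above the floor was counted for each regulator. YAB5 exceeded the floor on all 16 arrays, LAS on 14, MUTE on 7 and CLV3 on 4. The 4 CLV3 arrays were all apex arrays (of 10), and CLV3 was at background on all 6 cotyledon arrays. MUTE was above the floor on 3 of 10 apex arrays and on 4 of 6 cotyledon arrays, and LAS on 9 of 10 apex arrays and 5 of 6 cotyledon arrays.

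**Figure D1:**
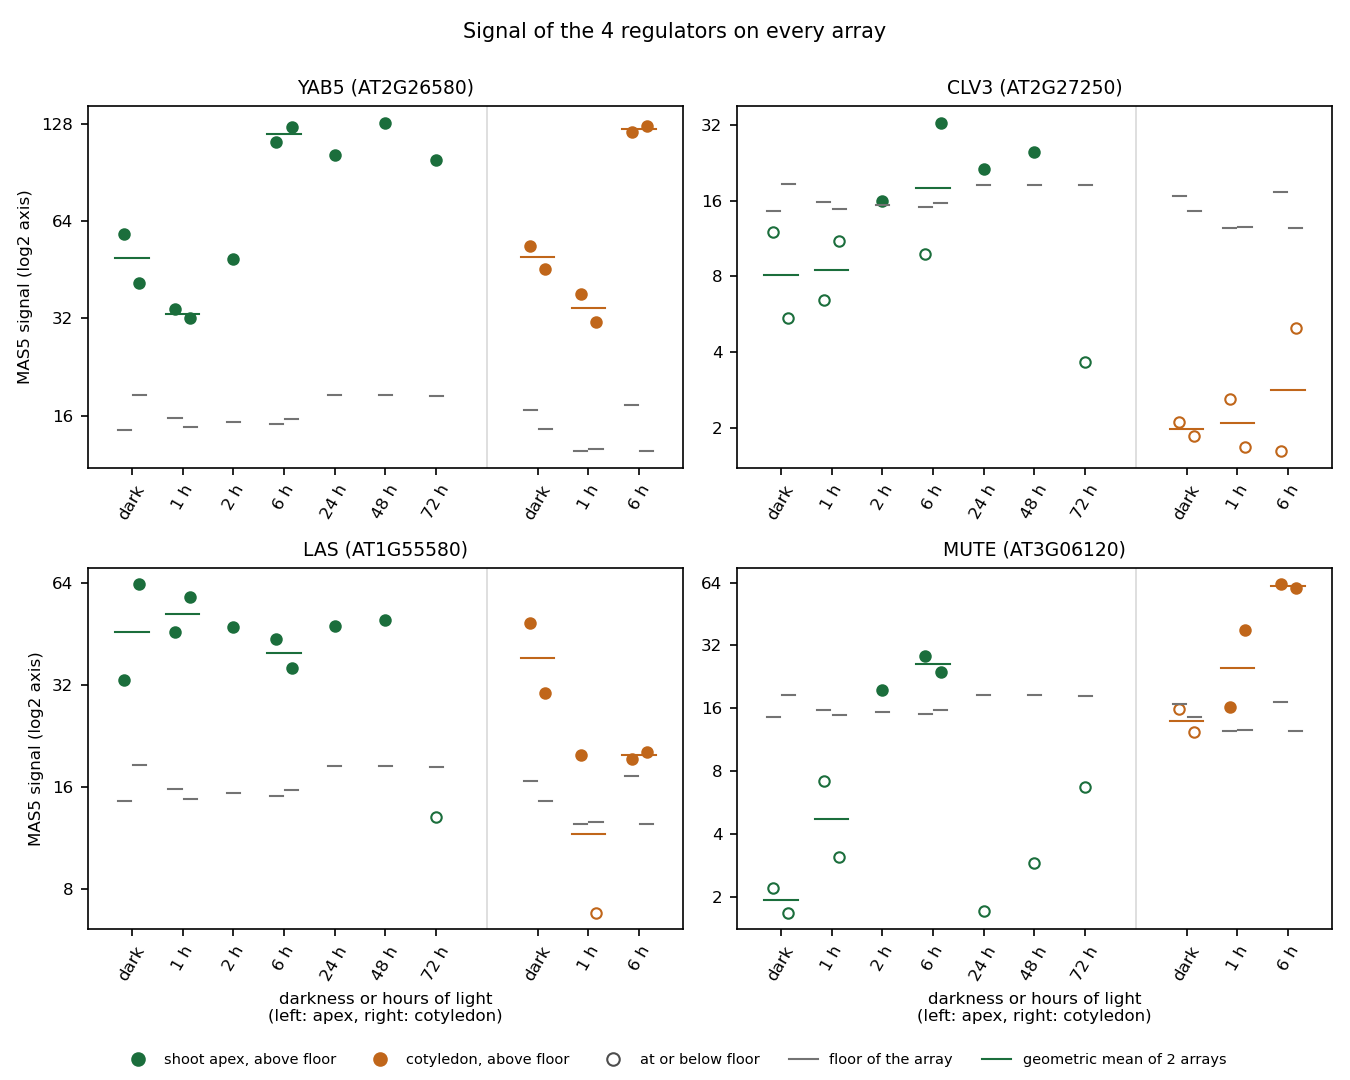
MAS5 signal (log2 axis) of YAB5, CLV3, LAS and MUTE on each of the 16 arrays, by tissue and time in the light; filled points lie above the array's floor (grey bar), open points at or below it, and coloured bars give the geometric mean of groups with 2 arrays. YAB5 lies between 112.5 and 126.1 in both tissues at 6 h, MUTE is above the floor in the apex at 2 and 6 h only, and all cotyledon points of CLV3 are open.

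YAB5, the organ-expressed YABBY gene, rose by 6 h of light in the apex (2.42-fold) and in the cotyledon (2.50-fold). In the apex its signal was 58.4 and 41.3 in the dark, 34.2 and 32.0 at 1 h, 48.7 at 2 h, 112.5 and 125.4 at 6 h, 102.6 at 24 h, 129.3 at 48 h and 99.3 at 72 h. In the cotyledon it was 53.7 and 45.6 in the dark, 38.1 and 31.2 after 1 h, and 121.0 and 126.1 after 6 h. Every array from 6 h onward was above every earlier array of its tissue, and both 1 h arrays of each tissue were below both dark arrays.

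After 6 h in the apex YAB5 averaged 118.9 ± 9.08 (SD, n = 2), against 49.9 ± 12.1 in the dark (SD, n = 2), a difference of 1.27 ± 0.30 or 2.42-fold (adjusted p = 0.00678). In the apex 25.2% of all probe sets were called in that contrast, where YAB5 and MUTE were called among the 4 regulators. Without apex 6 h replicate 2, the array with the highest GAPDH ratio, the difference was 1.20 (adjusted p = 0.0412). The call was lost without apex dark replicate 2 (1.02, adjusted p = 0.066) and without the second arrays of both groups (0.95, adjusted p = 0.162).

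The dip at 1 h measured -0.57 ± 0.30 in the apex (95% interval -1.22 to 0.08, adjusted p = 0.271) and -0.52 ± 0.30 in the cotyledon (95% interval -1.17 to 0.13, adjusted p = 0.552), and neither was called. The 6 h level was 1.84 ± 0.30 above the 1 h level in the apex, or 3.59-fold (adjusted p = 0.00315), a contrast in which 5.96% of probe sets and, of the regulators, YAB5 alone were called. That call held when any array was left out (highest adjusted p = 0.0356).

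The higher YAB5 signal lasted through the later time points of the apex. The mean of the 24, 48 and 72 h arrays was 1.16 ± 0.27 above the dark level, or 2.23-fold (adjusted p = 0.0109), with all 6 pairings of late and dark arrays in that direction. In this late contrast 15% of probe sets were called, and YAB5 was the 1 regulator called. Without apex dark replicate 2 the difference was 0.91 and not called (adjusted p = 0.123). Taken array by array, the signal was 2.09-fold the dark mean after 24 h, 2.63-fold after 48 h and 2.02-fold after 72 h, with 1 array each. Against 6 h the late mean measured -0.12 ± 0.27 (95% interval -0.71 to 0.47).

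In the cotyledon YAB5 averaged 123.6 ± 3.62 after 6 h (SD, n = 2), against 49.7 ± 5.70 in the dark (SD, n = 2), a difference of 1.32 ± 0.30 or 2.50-fold (adjusted p = 0.00828). This was the 1 regulator called in that contrast, in which 15.5% of probe sets were called. The call was lost without cotyledon dark replicate 2 (adjusted p = 0.0604) or cotyledon 6 h replicate 2 (adjusted p = 0.0548).

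YAB5 signals of apex and cotyledon could not be separated at any shared time. Apex minus cotyledon was -0.01 ± 0.30 in the dark (95% interval -0.66 to 0.64), -0.06 ± 0.30 at 1 h (-0.71 to 0.58) and -0.06 ± 0.30 at 6 h (-0.70 to 0.59). The 6 h response of the apex minus that of the cotyledon was -0.05 ± 0.42 (95% interval -0.96 to 0.87, adjusted p = 0.975). For the 1 h response the difference was -0.05 ± 0.42 (95% interval -0.96 to 0.86). The intervals of the responses leave room for differences of almost 2-fold in either direction. Those of the tissue differences are narrower and reach from -0.71 to 0.64 on the log2 scale.

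Ordered by level, the YAB5 groups fell into a higher and a lower set. From the top these were apex 48 h, cotyledon 6 h, apex 6 h, apex 24 h and apex 72 h, then cotyledon dark, apex dark, apex 2 h, cotyledon 1 h and apex 1 h. The gap between apex 72 h (1 array) and cotyledon dark, 1.00 on the log2 scale, was 2.73 SE wide, and no other pair of neighbours was more than 2 SE apart. It is the widest gap between means sorted on these same data, so its width is a description and not a test.

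MUTE, the stomatal-lineage factor, was highest in the cotyledon after 6 h of light and in the apex it was above background at 2 and 6 h only. Its apex signal was 2.2 and 1.7 in the dark, 7.1 and 3.1 after 1 h, 19.7 after 2 h, 28.5 and 23.9 after 6 h, 1.7 after 24 h, 2.9 after 48 h and 6.7 after 72 h. In the cotyledon it was 15.9 and 12.3 in the dark, 16.3 and 38.0 after 1 h, and 63.0 and 60.2 after 6 h. The 2 h and 6 h apex arrays were above every other apex array, and both cotyledon arrays at 6 h were above all arrays of other groups.

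In the apex after 6 h MUTE averaged 26.2 ± 3.24 (SD, n = 2), against 1.95 ± 0.38 in the dark (SD, n = 2), where it was at background on both arrays. The fold was therefore a bound, at least 1.59-fold higher after 6 h. The fitted difference was called (3.75 ± 0.77, adjusted p = 0.00278), but its size rests on dark signals far under the floor. With dim signals raised to the floor it was 0.67 and was not called (adjusted p = 0.198). Against 1 h, where MUTE was also at background, the signal at 6 h was at least 1.71-fold higher and not called (adjusted p = 0.0822).

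On the later apex arrays MUTE was at background, at 24, 48 and 72 h alike. The late mean was at least 1.41-fold lower than at 6 h, with a fitted difference of -3.02 ± 0.70 (adjusted p = 0.0091) and all 6 pairings in that direction. In this contrast 18.8% of probe sets were called, and MUTE was the 1 regulator among them. The call was lost with dim signals raised (-0.50, adjusted p = 0.319), with apex arrays fitted alone (adjusted p = 0.0729), and when either 6 h apex array was left out (adjusted p = 0.0532 without replicate 1, 0.0511 without replicate 2).

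In the cotyledon at 6 h MUTE averaged 61.6 ± 2.01 (SD, n = 2), against 14.1 ± 2.61 in the dark (SD, n = 2), where both arrays were at or below the floor. The fold was at least 3.95, all 4 pairings of arrays had the 6 h signal higher, and the difference of 2.14 ± 0.77 was not called (adjusted p = 0.0801). It was called with dim signals raised (1.98, adjusted p = 0.000939), with log2(signal + 16) (1.37, adjusted p = 0.00367), with a variance prior that did not follow intensity (adjusted p = 0.0304) and with cotyledon arrays fitted alone (adjusted p = 0.0148). Raising dim signals puts the floors in place of both dark signals, so their own spread does not enter that p-value. In all 12 fits that left out 1 array the difference stayed uncalled (1.95 to 2.33). At 1 h, with arrays at 16.3 and 38.0, the geometric mean of the cotyledon was 1.60-fold the floors of its dark arrays. The fitted difference was 0.83 ± 0.77 and was not called (adjusted p = 0.76). The 1.60-fold is no minimum and rests on replicate 2, since replicate 1 (16.3) was under the floor of cotyledon dark replicate 1 (16.7).

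Between tissues, MUTE was lower in the apex than in the cotyledon on every pairing of arrays at each shared time. In the dark both tissues were at background, so no fold is given although the fit called the difference (adjusted p = 0.0205, with 16.9% of probe sets called). With the floor at the 25th percentile both dark cotyledon arrays were above it and both dark apex arrays below it. That contrast held no other called regulator. At 1 h the geometric mean of the cotyledon was 1.63-fold the floors of the apex arrays, and the difference was not called (adjusted p = 0.0722). The 1.63-fold is no minimum, since cotyledon 1 h replicate 1 (16.3) lay near those floors (15.7 and 14.8). At 6 h the difference was -1.24 ± 0.77 (95% interval -2.90 to 0.42, adjusted p = 0.449). The 6 h response of the apex minus that of the cotyledon measured 1.61 ± 1.09 (adjusted p = 0.493) and turned to -1.31 (adjusted p = 0.175) with dim signals raised, so the data give it no direction.

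The order of MUTE levels ran from cotyledon 6 h through apex 6 h, cotyledon 1 h, apex 2 h and cotyledon dark to apex 72 h, apex 1 h, apex 48 h, apex dark and apex 24 h. With the floor at the 35th percentile all groups from cotyledon dark downward were at background, and no order is read among them. That depends on the floor, since at the 25th percentile both cotyledon dark arrays were above it. No 2 neighbours were more than 2 SE apart.

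LAS, the axillary meristem regulator, stayed between 33.2 and 63.4 in the apex through 48 h, and its single called difference was a higher level in the apex than in the cotyledon after 1 h. In the apex the signal was 33.2 and 63.4 in the dark, 45.7 and 58.1 after 1 h, 47.4 after 2 h, 43.7 and 35.8 after 6 h, 47.7 after 24 h, 49.8 after 48 h and 13.0 after 72 h. The 72 h array was the only apex array at background, at least 2.50-fold below the dark mean. In the cotyledon the signal was 48.6 and 30.2 in the dark, 19.9 and 6.8 after 1 h, and 19.4 and 20.4 after 6 h. All 4 light arrays of the cotyledon were below both of its dark arrays, and cotyledon 1 h replicate 2 was at background.

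In the apex LAS did not pass the test at any time. The difference from the dark was 0.17 ± 0.54 at 1 h (95% interval -0.98 to 1.32), -0.21 ± 0.54 at 6 h (-1.36 to 0.94) and -0.55 ± 0.49 for the late mean (-1.60 to 0.50, adjusted p = 0.536). The late value rests on the 72 h array, since without it the difference was 0.09 (adjusted p = 0.944). The 72 h group is 1 array, so whether its low value belongs to the time point or to the array was not tested.

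In the cotyledon LAS measured -1.72 ± 0.54 at 1 h (adjusted p = 0.153) and -0.95 ± 0.54 at 6 h (adjusted p = 0.284), relative to the dark. Neither was called, in contrasts where 2.19% of probe sets (1 h) and 15.5% (6 h) were. In the 1 h contrast no regulator was called. Without cotyledon 1 h replicate 1 the 1 h difference was -2.49 and was called, but it then rested on replicate 2 alone, which was at background (6.8). No other fit that left out 1 array gave a call, and the smallest difference among them was -0.94. With dim signals raised the 1 h difference was -1.27 (adjusted p = 0.129).

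After 1 h of light LAS averaged 51.9 ± 8.73 in the apex (SD, n = 2), against 13.4 ± 9.25 in the cotyledon (SD, n = 2). The difference was 2.14 ± 0.54, or 4.42-fold, with an adjusted p of 0.0238 and all 4 pairings the same way. Since 1 of the 2 cotyledon arrays was at background, its size depends on a signal under the floor, and with dim signals raised the log2 difference was 1.70 (adjusted p = 0.0118). LAS was the 1 regulator called in that contrast, in which 8.71% of probe sets were called. The call ended when either 1 h apex array was left out (adjusted p = 0.109 and 0.154 for replicates 1 and 2), when cotyledon 1 h replicate 2 was (1.37, adjusted p = 0.161), after quantile normalization (1.77, adjusted p = 0.0619) and with a variance prior that did not follow intensity (adjusted p = 0.0656). The GAPDH ratio was 0.832 and 1.85 on the 2 apex arrays at 1 h, against 2.31 and 3.54 on the 2 cotyledon arrays, and its part in the difference was not tested.

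At the other shared times LAS differed less between the tissues. Apex minus cotyledon was 0.26 ± 0.54 in the dark (95% interval -0.89 to 1.41) and 0.99 ± 0.54 at 6 h (-0.16 to 2.15, adjusted p = 0.366). In the 6 h tissue contrast 3.31% of probe sets and none of the 4 regulators were called. The 1 h response of the apex minus that of the cotyledon was 1.88 ± 0.76 (95% interval 0.26 to 3.51, adjusted p = 0.281). Its unadjusted p was 0.0263, and with 1.02% of probe sets called in that contrast the tissues are not shown to respond differently.

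The LAS groups ran from apex 1 h, apex 48 h, apex 24 h, apex 2 h, apex dark and apex 6 h through cotyledon dark and cotyledon 6 h to apex 72 h and cotyledon 1 h. No neighbours in that order were more than 2 SE apart. The widest gap, 0.95 between cotyledon dark and cotyledon 6 h, was 1.77 SE.

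CLV3, the stem-cell peptide, was at or close to background throughout, and its signal was above the floor only in the apex. In the apex it was 12.0 and 5.5 in the dark, 6.4 and 11.1 after 1 h, 15.9 after 2 h, 9.8 and 32.7 after 6 h, 21.3 after 24 h, 24.9 after 48 h and 3.6 after 72 h. In the cotyledon all 6 signals lay between 1.6 and 5.0. The signal exceeded the floor on the 2, 24 and 48 h arrays and on apex 6 h replicate 2, and the 2 h array did so by a small margin (15.9 against a floor of 15.3).

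No CLV3 difference was called in any limma contrast, and 1 of them, given further on, had an unadjusted p under 0.05. At 6 h the geometric mean of the apex was 1.09-fold the floors of its dark arrays (fitted 1.15 ± 1.07, adjusted p = 0.484), with the 2 arrays at 9.8 and 32.7. The 1.09-fold is no minimum, since replicate 1 (9.8) was at background. The higher signal came from replicate 2, whose GAPDH ratio was 5.40. When it was left out the difference was 0.28 (adjusted p = 0.926), and its RNA quality's part in the signal was not tested. The 24 h array was at least 1.30-fold above the dark floor and the 48 h array at least 1.52-fold, with 1 array each and no test.

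For CLV3 at 6 h the geometric mean of the apex was 1.22-fold the floors of the cotyledon arrays. The fitted difference, apex minus cotyledon, was 2.66 ± 1.07 (unadjusted p = 0.0264, adjusted p = 0.207), and all 4 pairings had the apex higher. The 1.22-fold is no minimum and rests on apex 6 h replicate 2 (32.7, GAPDH ratio 5.40). Replicate 1 (9.8) was at background like both cotyledon arrays. Without replicate 2 the fitted difference was 1.79 (adjusted p = 0.581), with both tissues at background. Raising dim signals to the floor lowered that difference to 0.60 (adjusted p = 0.366). In the dark and at 1 h both tissues were at background and no fold is given. The 6 h response of the apex minus that of the cotyledon was 0.63 ± 1.51 (95% interval -2.62 to 3.88), in a contrast where 2.69% of probe sets and none of the regulators were called. The SE of CLV3 was over 3 times that of YAB5, so at this signal a change of several fold in CLV3 was not detectable.

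In the order of CLV3 levels apex 48 h came first, followed by apex 24 h, apex 6 h and apex 2 h. The remaining groups, apex 1 h, apex dark, apex 72 h and the 3 cotyledon groups, were at background, and no neighbours were more than 2 SE apart. After 1 h in the apex, where 10.8% of probe sets were called, CLV3 and MUTE were at background in both groups and none of the 4 regulators was called.

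**Figure D2:**
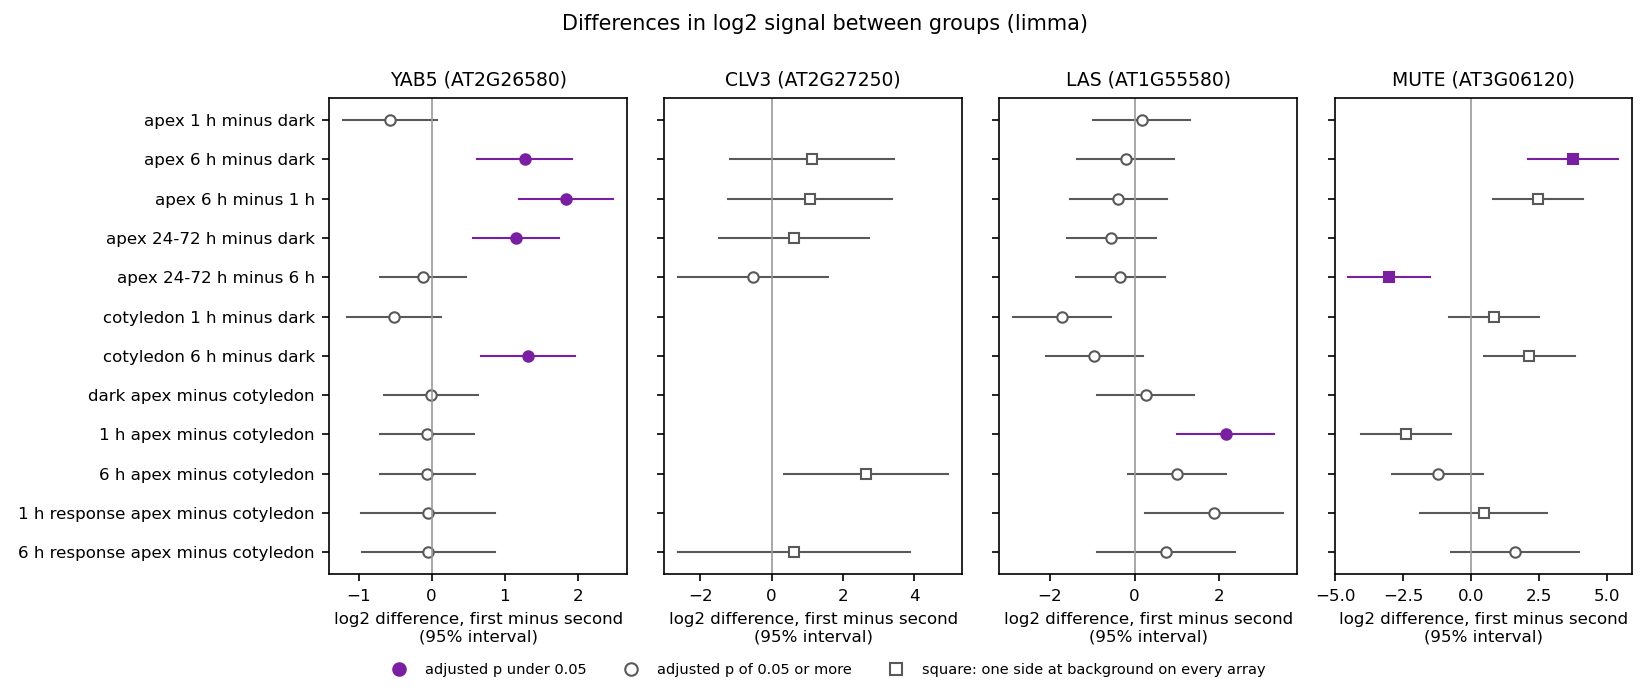
Log2 differences (first group minus second) with 95% intervals from limma for each regulator; filled points are called, open points are not, squares have a group at background on every array, and contrasts with all groups at background are left out. YAB5 has 4 called differences, MUTE 2, LAS 1 and CLV3 0, in contrasts where 1.02% to 25.2% of all probe sets were called.

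Few other genes of the same pathways could be read, because only probe sets that the annotation used here ties to a single gene were taken. In that annotation 8807 of the 22746 non-control probe sets had no gene name, and 503 matched several genes. Of 25 genes of the YABBY and leaf primordium list 4 were tested, of 24 meristem maintenance genes 3, of 19 stomatal lineage genes 3 and of 16 boundary and axillary meristem genes 0. WUS, CLV1, CLV2, STM, FIL, the CUC genes, TMM, EPF1 and EPF2 are therefore not analysed here, and the apex label could not be checked against STM or WUS.

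YAB3, a YABBY gene that acts with FIL in lateral organs, was not called at 6 h in either tissue. Its apex signal was 137.0 and 160.3 after 6 h, against 205.8 and 259.6 in the dark, a difference of -0.64 ± 0.25 (adjusted p = 0.077). In the cotyledon it was 258.7 and 200.6 after 6 h, against 343.6 and 307.4 in the dark (-0.51 ± 0.25, adjusted p = 0.204). Whether YAB5 and YAB3 respond differently was not tested.

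None of the 4 primordium list genes was called in the apex at 6 h, where 25.2% of all probe sets were, a count too small to set apart from that share. The list had a median of -0.21 beside -0.07 over all probe sets tested. PHV, an HD-ZIP III factor of the upper leaf side and the meristem, was 1.73 ± 0.44 higher in the apex than in the cotyledon at 6 h (adjusted p = 0.0495), with signals of 52.9 and 67.8 against 25.2 and 12.9. That call was lost in 10 of 12 fits that left out 1 array, with differences of 1.25 to 2.21. JAG, a zinc finger factor that promotes the growth of lateral organs, was picked after its values were seen. It was at 26.7, 40.9 and 49.0 at 24, 48 and 72 h, all above the floor, against 6.0 and 11.0 in the dark, both at background (fitted late difference 2.21 ± 1.00, adjusted p = 0.171).

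Among the 3 meristem maintenance genes, 1 rose in the apex by 6 h, which is near the 25.2% of all probe sets called there. ULT1, a SAND-domain regulator that restricts stem-cell number, had signals of 183.9 and 231.2 after 6 h, against 97.6 and 77.2 in the dark, a rise of 1.25 ± 0.29 (adjusted p = 0.00651) that was not called without apex dark replicate 2 (1.08, adjusted p = 0.064). It was 0.91 ± 0.27 lower at the late times than at 6 h (adjusted p = 0.0295), a call that was lost when apex 6 h replicate 2 was left out (-0.74, adjusted p = 0.183). The list median at 6 h was 0.25, beside -0.07 over all probe sets.

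None of the 3 measured stomatal lineage genes was called at 6 h against the dark in either tissue, where 25.2% (apex) and 15.5% (cotyledon) of all probe sets were, so a count of 0 of 3 is not apart from the background. SPCH, which starts the lineage, had signals of 100.9 and 118.9 in the cotyledon at 6 h, against 22.4 and 59.7 in the dark (1.58 ± 0.57, adjusted p = 0.082), and 0.16 ± 0.57 in the apex. FAMA, which acts after MUTE, measured -0.16 ± 0.52 in the cotyledon and -1.28 ± 0.52 in the apex (adjusted p = 0.0904). EPFL9, the stomagen peptide that promotes stomata and is made by the inner leaf tissue, was 1.24 ± 0.40 lower in the dark apex than in the dark cotyledon (adjusted p = 0.0471), a call lost in 10 of 12 fits that left out 1 array. Its apex signal was 222.3, 206.1 and 266.8 at 24, 48 and 72 h, against 307.6 and 924.4 at 6 h, a difference of -1.21 ± 0.36 (adjusted p = 0.0324). The high 6 h signal is that of replicate 2, with the GAPDH ratio of 5.40, and without it the difference was -0.42 and not called (adjusted p = 0.430).

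Markers of other cell types could be read only in part. On the guard cell list 1 of 4 genes was measured, AT1G22690. Its signal was 113.1, 136.6 and 197.7 at 24, 48 and 72 h in the apex, against 12.2 and 13.7 in the dark, where it was at background. It was at least 8.84-fold higher at those late times (adjusted p = 0.000101), at which MUTE was at background. In the cotyledon at 6 h, where MUTE was highest, AT1G22690 was at least 2.58-fold above the dark (adjusted p = 0.0298), a call lost without cotyledon dark replicate 2 (1.28, adjusted p = 0.177) or either 6 h array (adjusted p = 0.101 and 0.122). Of the mesophyll photosynthesis markers 2 of 7 were measured, and PSAN, a photosystem I subunit, rose over the dark by 1.77 ± 0.27 in the apex (adjusted p = 0.000309) and by 1.51 ± 0.27 in the cotyledon (adjusted p = 0.00155) by 6 h, the time at which YAB5 was higher in both. RCA, which encodes Rubisco activase, rose by 1.09 ± 0.31 in the apex at 6 h (adjusted p = 0.018), a call lost in 3 of 12 fits that left out 1 array, and measured 0.58 ± 0.31 in the cotyledon, which was not called (adjusted p = 0.243). RCA was 1.05 ± 0.31 lower in the dark apex than in the dark cotyledon (adjusted p = 0.0298), a call lost in 4 of 12 such fits. None of the 6 vascular or 5 root markers was measured. The part of these cell types in the regulators' values was not tested.

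**Figure D3:**
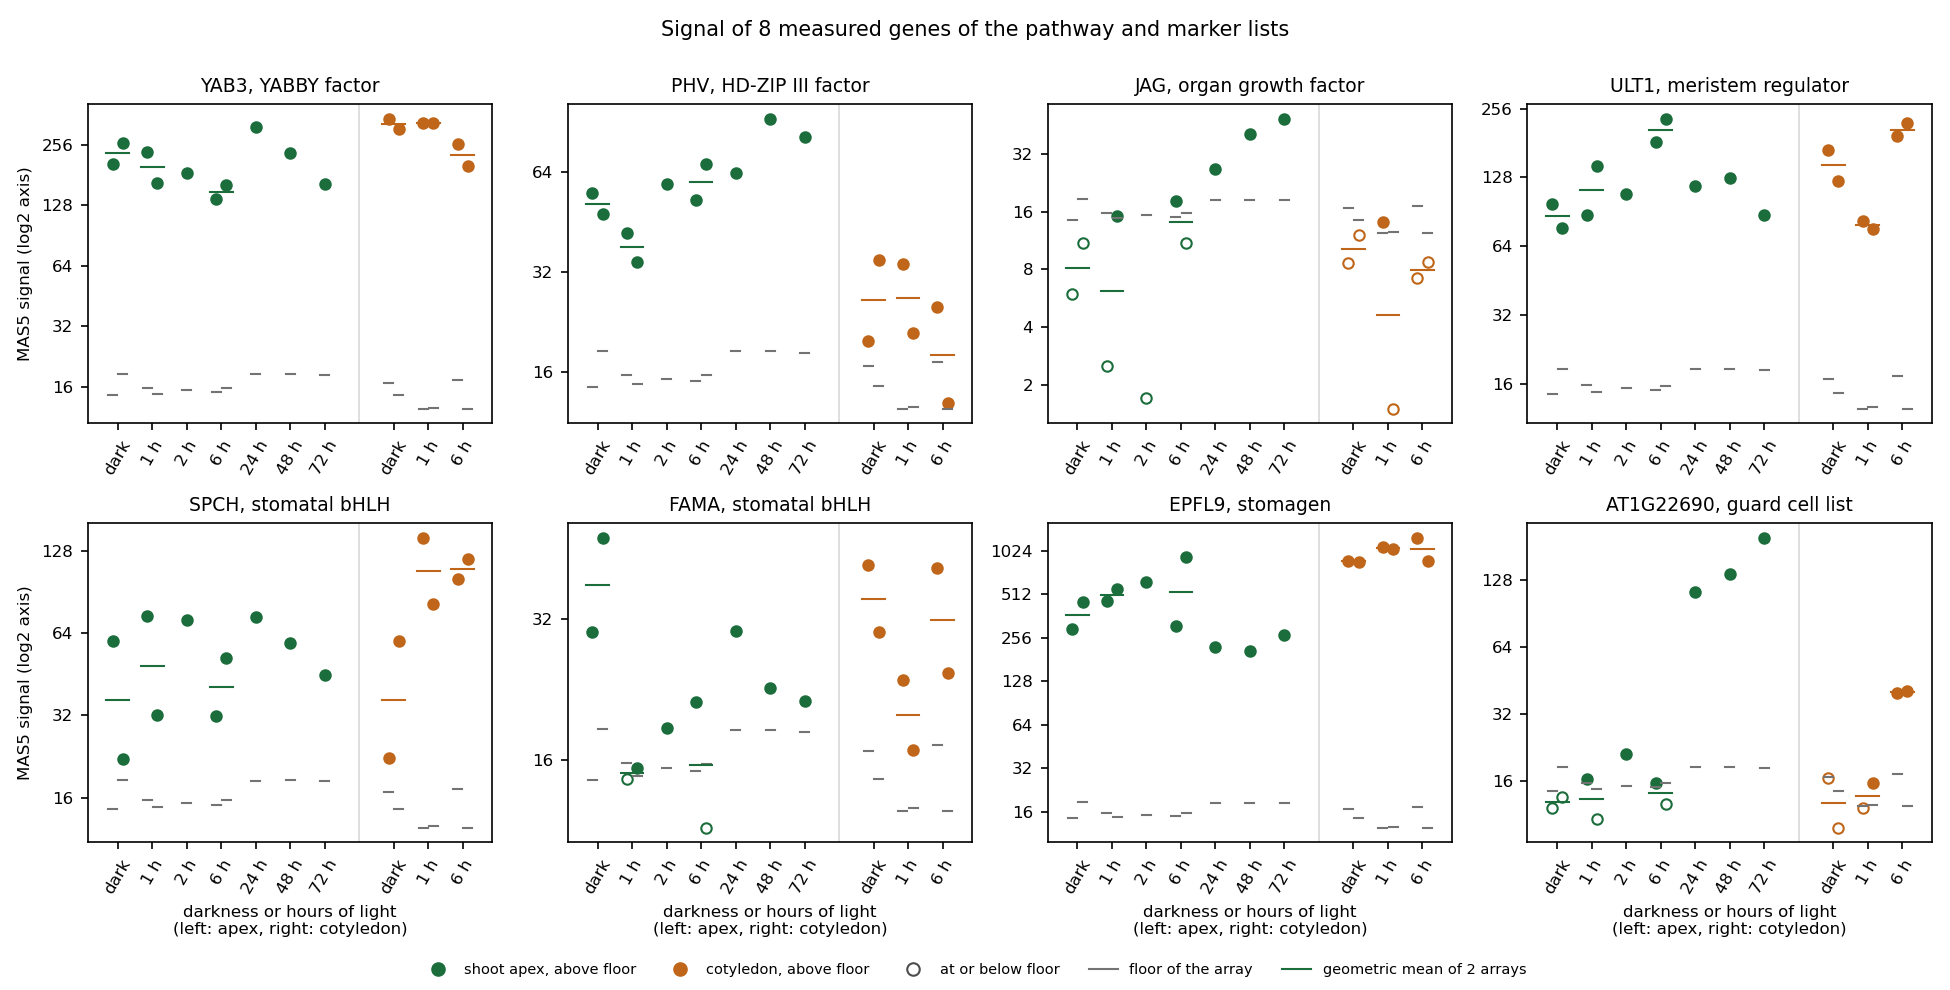
MAS5 signal (log2 axis) on each array for 8 genes of the pathway and marker lists, drawn as for the regulators. YAB3 stays between 137.0 and 343.6, JAG and AT1G22690 are highest in the apex at 24 to 72 h, and both cotyledon points of SPCH at 6 h lie above both of its dark points.

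The genes with the most similar profiles were found by the correlation of log2 group means over the 10 groups, among 5966 candidate probe sets. For YAB5 they were AT1G70820 (r = 0.942), AT2G03310 (0.939) and AT3G22060 (0.936), and for LAS they were AT3G19184 (0.928), AT5G59360 (0.917) and AT1G08590 (0.894). CLV3 was closest to AT2G42300 (0.961), AT1G55360 (0.951) and AT5G37790 (0.947), and MUTE to AT3G51870 (0.961), to PGY1 (0.958), which encodes a ribosomal protein of the large subunit, and to AT2G20450 (0.957). These correlations are descriptions. The points share arrays and scaling, the best of many candidates is high by selection, and for CLV3 and MUTE most group means lie at background. AT3G19184, the gene closest to LAS, was above the floor on only 5 of the 16 arrays. The 3 genes closest to YAB5 were above the floor on 7, 6 and 6 of the 16 arrays, and their dark, 1 h and 2 h means lie under it. The apex 6 h means of AT2G03310 and AT3G22060 lie under the floor too.

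**Figure D4:**
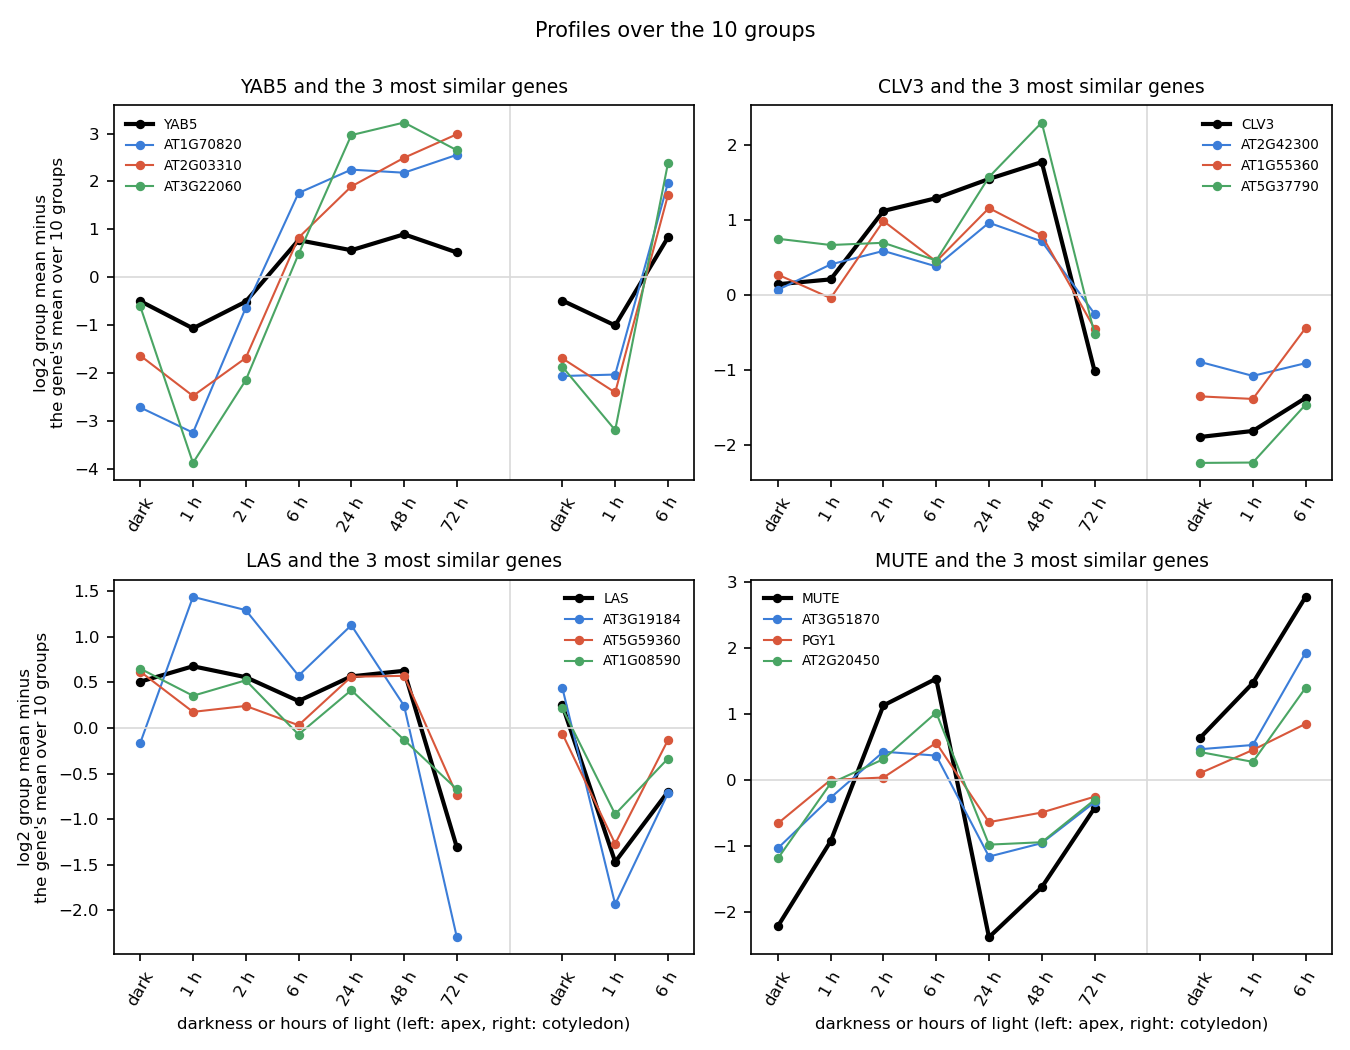
Log2 group mean minus each gene's own mean over the 10 groups, for each regulator (black) and the 3 genes of most similar profile. In the YAB5 panel all 4 genes are higher in the apex from 24 h on than in the dark and at 1 h. The other 3 have means under the floor in the dark, at 1 h and at 2 h, and AT2G03310 and AT3G22060 also in the apex at 6 h. Their order and depth there carry no reading.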

How the data were processed

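Transcript signals were measured on 16 ATH1 arrays, and the deposited values are MAS5 signal intensities, attributed to GCOS and MAS5 in the submitters' processing notes with no versions stated. The values show that each array had been scaled to a 2% trimmed mean of 100.01. Signals were log2-transformed with no pseudocount and no further scaling. After removal of 64 controls from 22810 probe sets, 18237 lay above their array's 35th percentile on at least 2 arrays and were tested. Names came from the array annotation (13436 non-control probe sets matched 1 gene with a locus) and from TAIR10.1 gene names. No genome or sequence was used here.

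The fit used limma 3.58.1 in R 4.3.3 with 1 mean per group and a variance trend (6 residual and 7.62 prior degrees of freedom). Groups with 1 array were assumed to vary like the replicated ones. Tests are two-sided. A fold against a group at background is a bound, the brighter group's mean log2 signal against the dim arrays' floors. It is no minimum where an array of the brighter group itself lies at or near those floors. The code was tested on simulated data. Depth of signal over background and the number of arrays limit precision, with a median SE of 0.42 for 2 arrays against 2.

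The members and lists were chosen with earlier results of these data known. Named list genes were those called, a short set of pathway genes given by their values (among them YAB3, SPCH and FAMA), and the 3 closest profiles per regulator with at least 3 arrays above the floor and an SD of group means of 0.5 or more. Alternatives were quantile normalization, median centring, 2 filters, dim signals raised to the floor, log2(signal + 16), another variance prior, single-tissue fits, a replicate block and left-out arrays.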

Additional observations from a re-analysis of the deposited data

How the results depend on the processing

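Of 39 differences of the regulators with a group above background, 7 were called. Over all probe sets the share called ran from 1.02% to 25.2% by contrast, and the pooled count was not set against it. With the replicate number as a block 7 were called too, and no call changed (YAB5 in the apex at 6 h, 1.27, adjusted p = 0.00868). Deviations of same-numbered arrays correlated at -0.13 to 0.12 over 15 pairs of groups, and only 2 of 6 groups had a mean correlation above 0. The numbers are still not bare labels in the apex, where replicate 2 of every pair had the higher GAPDH and actin ratios. The GAPDH ratio was 1.78 against 0.899 in the dark, 1.85 against 0.832 at 1 h and 5.40 against 1.45 at 6 h. In the cotyledon pairs neither number was higher throughout. The part of RNA quality in the calls was not tested. Without the second arrays of apex dark and apex 6 h, YAB5 lost its calls at 6 h (0.95) and late (0.91). Uncalled values that turned sign there were CLV3 at 6 h (-0.29), late against 6 h (0.35) and in the 6 h response (-0.81), LAS at 6 h (0.40) and in the dark between tissues (-0.21), and YAB5 in the dark between tissues (0.24). With dim signals raised, MUTE lost its calls in the apex at 6 h (0.67) and late against 6 h (-0.50), gained one in the cotyledon at 6 h (1.98), and turned sign in the 1 h (-0.78) and 6 h (-1.31) responses. With log2(signal + 16) MUTE gained calls in the apex at 6 h against 1 h (1.00), in the cotyledon at 6 h (1.37) and between tissues at 1 h (-0.99), and turned sign in the 1 h (-0.25) and 6 h (-0.14) responses. Without a variance trend MUTE was called in the cotyledon at 6 h (2.14) and between tissues at 1 h (-2.40), and LAS was not called between tissues at 1 h (2.14). Quantile normalization ended the LAS call (1.77) and turned the YAB5 6 h response to 0.14, median centring turned it to 0.069 and called MUTE between tissues at 1 h (-2.69). Single-tissue fits ended the late MUTE call (-3.02) and called MUTE in the cotyledon at 6 h (2.14). The causes were not tested.

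Leaving out 1 array at a time gave ranges for YAB5 of 1.02 to 1.52 (apex 6 h), 0.91 to 1.41 (late against dark) and 1.20 to 1.44 (cotyledon 6 h), each with a lost call. For MUTE late against 6 h the range was -3.54 to -2.56 and for LAS between tissues at 1 h 1.37 to 2.92, with lost calls, and for LAS in the cotyledon at 1 h -2.49 to -0.94, with a gained call. Uncalled values that crossed 0 were, for YAB5, the tissue differences in the dark (-0.26 to 0.24), at 1 h (-0.21 to 0.084) and at 6 h (-0.14 to 0.021) and the 1 h (-0.30 to 0.20) and 6 h (-0.30 to 0.20) responses. For LAS they were the apex at 1 h (-0.30 to 0.64) and 6 h (-0.68 to 0.26), late against dark (-1.01 to 0.089), late against 6 h (-0.67 to 0.30) and dark tissues (-0.21 to 0.73), for CLV3 late against 6 h (-1.39 to 0.37) and the 6 h response (-0.24 to 1.50), and for MUTE the 1 h response (-0.15 to 1.07).

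The floor decides most of what can be said of CLV3 and MUTE. At the 25th percentile CLV3 was above the floor on 7 arrays and at the 50th on 1, against 4. MUTE was above it on 9 arrays at the 25th, among them all 6 of the cotyledon, and on 3 at the 50th, against 7. With the floor at the 50th percentile all 3 were cotyledon arrays, and MUTE was above it on 0 of 10 apex arrays. The fits of list genes without single arrays were added after seeing the data. Centring each array on its median moved the all-probe-set median difference by up to -0.29 (1 h, apex minus cotyledon). Over the settings tried, the counts called over all probe sets ran in the apex from 722 to 2447 at 1 h (1974 as reported), 2333 to 5221 at 6 h (4594), 272 to 1413 at 6 h against 1 h (1087), 1479 to 3336 late against dark (2740) and 1929 to 4147 late against 6 h (3429). In the cotyledon they ran from 190 to 492 at 1 h (399) and 1620 to 3269 at 6 h (2829). Between tissues they ran from 1771 to 3566 in the dark (3077), 384 to 1998 at 1 h (1588) and 192 to 831 at 6 h (604), and for the responses from 15 to 291 at 1 h (186) and 14 to 1139 at 6 h (490).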

Other observations

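TRY, a MYB factor that limits trichome formation and the 1 measured gene of 5 on the trichome list, rose in the cotyledon by 6 h of light, with signals of 76.1 and 32.3 against 20.4 and 7.7 in the dark (1.99 ± 0.63, adjusted p = 0.0479). The call was lost in 6 of 12 fits that left out 1 array, with differences of 1.28 to 2.69. Like MUTE in that tissue, it had both 6 h arrays above both dark arrays. In the apex at 6 h TRY measured 0.08 ± 0.63. CLE40, which encodes a peptide related to CLV3, was at background in the apex at 6 h and not called against the dark (-0.13 ± 0.85, adjusted p = 0.937).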
